A study of Homo sapiens with 27 samples.

Results

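Nascent RNA of HL-60 cells treated with actinomycin D (ActD) was set directly against nascent RNA of HL-60 cells treated with DRB, a dichlorobenzimidazole ribofuranoside. The members are the gene tables of those 2 libraries, chosen by their titles, out of 27 libraries in the series. HL-60 is an established human promyelocytic leukaemia line. ActD was given at 0.8 µM and DRB at 100 µM, and another nascent library, from cells given the vehicle DMSO, serves to place both. The length of treatment is not given in the sources used here. All 3 groups are the same line, each with 1 library and no replicate, so every ratio compares libraries and carries no p-value. New RNA was pulled down with a click-chemistry capture kit.

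DRB is a nucleoside analogue that inhibits CDK9, the kinase of the positive transcription elongation factor P-TEFb, along with related kinases. Polymerase II then initiates but mostly stays paused near the start of a gene. ActD inserts between base pairs of DNA, preferring GpC steps, and blocks the movement of RNA polymerases. At low doses it is known for its strong effect on RNA polymerase I, and at higher doses it stops polymerase II as well.

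Levels are in CPM, the deposited expected counts scaled to a common library total, taken without mitochondrial genes. Of 58233 genes in the tables, 11657 had a mean of at least 1 CPM over the 2 libraries and were kept. Each ratio is log2 of ActD over DRB after 1 CPM was added to both sides. A gene is called higher or lower where this ratio is 1 or more, or −1 or less, which is 2-fold. Brackets after a log2 ratio hold the exact (Clopper-Pearson) 95% interval of the ratio of counts, computed without the added CPM, so it can lie outside the printed ratio when one side is near 0. The intervals cover counting error only. A fold against 0 counts is taken against a floor of 3 counts per library, which is 0.552 CPM for ActD and 0.624 CPM for DRB, and is written as at least. CPM is a share of a library, so it does not see a loss of RNA that all genes share, and fewer cells cannot be told apart from less RNA per cell.

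The promoters of 6 genes that stand at the ends of the comparison, and of 1 ribosomal protein gene, are shown as examples of short elements that turn up on both sides of it. Each line gives the 120 bases before the annotated start, 5′ to 3′ on the gene's strand, from RefSeq on GRCh38.p14. Capitals mark 4 motifs, each searched on both strands. They are the exact letters TATAAA of the box bound by TBP, the letters CCAAT bound by NF-Y, the letters GGGCGG bound by SP1 and the palindrome TGACGTCA, which is the cyclic AMP response element. HIST1H2AB (chr6:26033619-26033738, minus strand), HIST2H3D (chr1:149813694-149813813, minus) and HIST1H1E (chr6:26156209-26156328, plus) encode replication-dependent histones and were lower under ActD. JUN (chr1:58784048-58784167, minus), FOSB (chr19:45467876-45467995, plus) and PPP1R15A (chr19:48872301-48872420, plus) encode early response and stress factors and were higher under ActD. RPL36 (chr19:5690175-5690294, plus) encodes a ribosomal protein, was also higher under ActD, and holds none of these motifs in this window.
HIST1H2AB: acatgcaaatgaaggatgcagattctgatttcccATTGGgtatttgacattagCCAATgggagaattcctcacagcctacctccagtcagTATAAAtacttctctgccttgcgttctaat
HIST2H3D: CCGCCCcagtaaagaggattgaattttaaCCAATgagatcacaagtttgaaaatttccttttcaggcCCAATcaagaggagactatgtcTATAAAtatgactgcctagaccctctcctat
HIST1H1E: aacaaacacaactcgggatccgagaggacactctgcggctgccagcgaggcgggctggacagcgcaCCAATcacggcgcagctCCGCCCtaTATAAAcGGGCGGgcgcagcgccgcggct
JUN: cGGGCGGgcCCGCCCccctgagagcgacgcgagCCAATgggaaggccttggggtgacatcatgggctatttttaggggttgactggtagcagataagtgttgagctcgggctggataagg
FOSB: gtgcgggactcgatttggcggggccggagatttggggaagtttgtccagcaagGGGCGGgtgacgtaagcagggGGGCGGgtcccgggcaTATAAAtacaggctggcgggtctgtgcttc
PPP1R15A: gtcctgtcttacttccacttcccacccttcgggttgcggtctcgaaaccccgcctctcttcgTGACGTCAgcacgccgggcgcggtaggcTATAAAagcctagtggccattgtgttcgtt
RPL36: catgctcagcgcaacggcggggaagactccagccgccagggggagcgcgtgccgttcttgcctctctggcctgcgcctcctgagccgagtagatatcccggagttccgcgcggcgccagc
The exact TATAAA lay in the 250 bases before the start in 28 of 45 histone genes with a RefSeq promoter, which is 62.2%, against 5.48% of all 7958 protein-coding genes kept with one. CCAAT was present in 82.2% of the histone promoters and in 36.0% of all. GGGCGG was present in 28.9% of the histone promoters and in 67.2% of all. TATAAA was also present in 23.8% of 21 promoters of labile feedback and stress genes, which were mostly higher under ActD. Of 17 early response promoters, the list of JUN and FOSB, 2 had it (11.8%). Not every gene at the ends had it: HIST1H2AK, lower under ActD, and IER5L and DDIT3, higher under ActD, lacked it in the same 120 bases. Over all called genes, 5.87% of 2522 higher genes and 5.75% of 2869 lower genes had it, so TATAAA was about as frequent in both directions. TGACGTCA was present in 13.3% of the histone promoters, 11.8% of the early response promoters, 4.76% of the labile gene promoters and 3.05% of all promoters.

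The ActD library held 12600067 expected counts, DRB 14339264 and DMSO 14426368. Mitochondrial genes took 56.9% of them under ActD, 66.5% under DRB and 45.9% under DMSO. All other genes were left with 5435877 counts under ActD, 4807213 under DRB and 7799808 under DMSO. Genes above 0 numbered 12575 under ActD, 13096 under DRB and 16217 under DMSO. Markers of promyelocytes summed to 3550 CPM under ActD, 2871 under DRB and 3030 under DMSO over 8 genes, of which ELANE was listed at 0 in each library. The erythroid markers HBA1, HBA2, HBB, HBG1 and ALAS2 were at 0 under ActD and DRB. The 6 lymphoid markers summed to 0.368 CPM under ActD and 0 under DRB, and the 6 epithelial and fibroblast markers (EPCAM, 2 keratins, 2 collagens and DCN) to 0 CPM under ActD and 0.208 under DRB. The wider lists for those lineages held 3 more genes that were kept, each past 2-fold. TFRC, the transferrin receptor, had 89.4 CPM under ActD, 299 under DRB and 278 under DMSO, a log2 ratio of −1.73 that was 0.15 in the deposited TPM. KLF1, an erythroid transcription factor, had 5.70 CPM, or 31 counts, under ActD and 0 counts under DRB and DMSO, at least 9.14-fold higher than under DRB. VIM, for the intermediate filament vimentin, had 781 CPM under ActD, 139 under DRB and 314 under DMSO, a ratio of 2.48.

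The ActD and DRB libraries were far apart. Of the 11657 genes kept, 3922 were higher under ActD (33.6%) and 4391 lower (37.7%), so 71.3% were called either way and 3344 lay within 2-fold. The median gene stood at −0.15 on the log2 scale. Differences past 4-fold were seen in 47.7% of genes and past 16-fold in 15.6%. The nearest genes on either side of the limits had log2 ratios of 1.0001 and 0.9993, and of −1.0008 and −0.9990. At 0 counts were 1028 of the genes under ActD and 649 under DRB. With MT- genes in the total, each ratio of CPM shifts by 0.36 before 1 CPM is added, and 10412 genes passed the filter. The median was then 0.29 and the split 3963 higher and 3175 lower genes. Every direction below is relative to the library's other nuclear RNA.

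**Figure D1:**
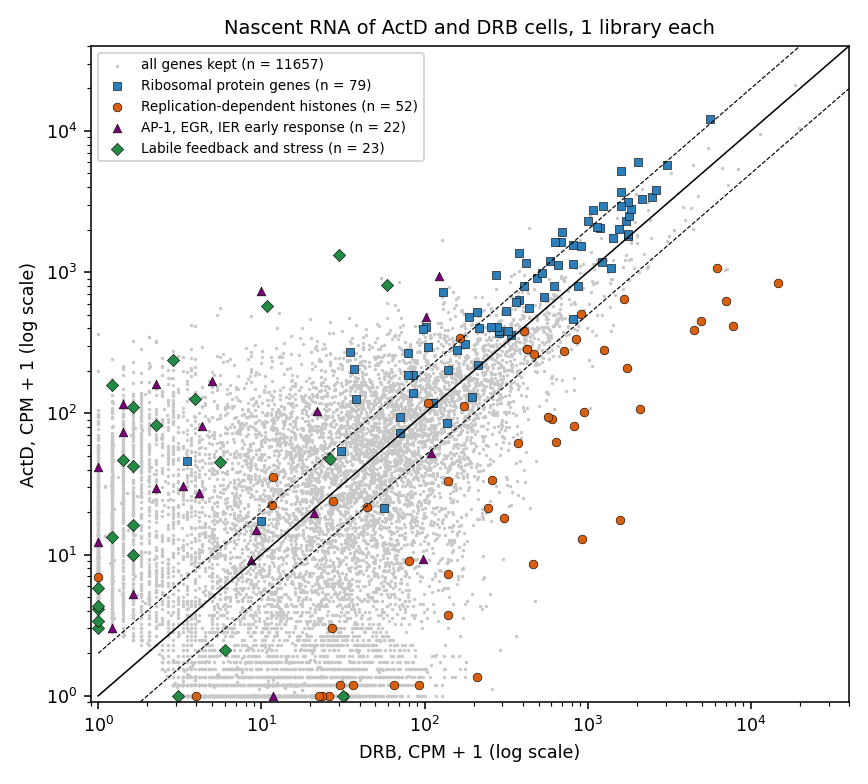
Level of each of the 11657 genes under ActD (vertical, CPM + 1, log scale) against DRB (horizontal, CPM + 1, log scale), 1 library each, with equality as a solid line and 2-fold as dashed lines. Replication-dependent histones (52) lie mostly below the lower dashed line, early response (22) and labile stress genes (23) mostly above the upper one, and ribosomal protein genes (79) along and above equality.

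Input DNA from cells of the same treatments varied far less, but it is another assay and does not measure how far separate nascent RNA samples of 1 treatment would differ. Over 911 genes with at least 100 input counts, 0.439% were 2-fold higher and 0.439% lower under ActD than under DRB, 0.878% in all, and the standard deviation of the log2 ratio was 0.39. The input libraries were shallow, with 439880 counts under ActD and 407555 under DRB. Of those genes, 689 were also in the RNA comparison, where 62.1% were called and the standard deviation was 2.20.

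The share of called genes differed with the level in the vehicle library. Among 1339 genes under 1 CPM in DMSO, 40.03% were higher and 55.1% lower under ActD. Among 3408 genes of 30 to 100 CPM, 31.6% were higher and 32.9% lower. Among 464 genes of 300 to 1000 CPM, 11.9% were higher and 18.1% lower, and among 95 genes over 1000 CPM, 9.47% and 16.8%. Genes were kept by their mean over ActD and DRB, so a gene low in the vehicle could enter only through an inhibitor library in which it was higher, and the share called in the lowest bins is in part set by this filter. From 30 CPM in DMSO upward, the share called either way was 64.5%, 48.7%, 29.96% and 26.3% in the successive bins.

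**Figure D2:**
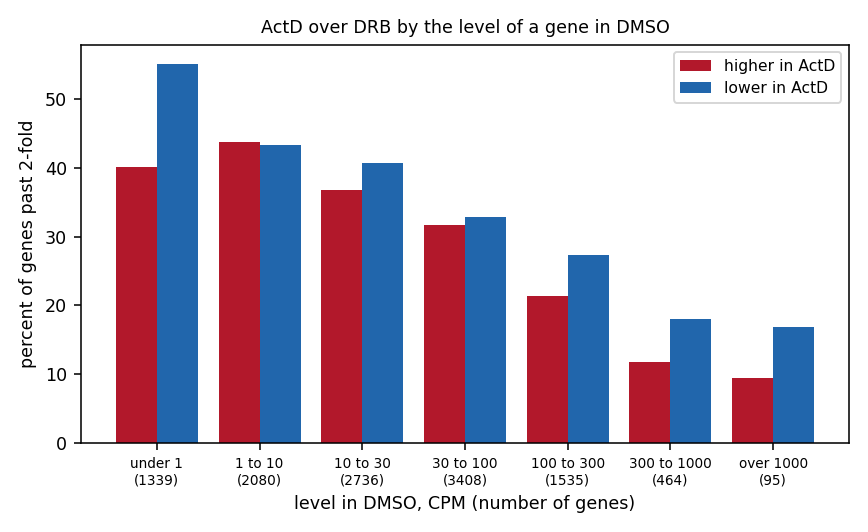
Percent of genes at least 2-fold higher (left bar of each pair) or lower (right bar) under ActD than under DRB, by level of the gene in the DMSO library in CPM, with the number of genes in each bin. The share called either way is 64.5% in genes of 30 to 100 CPM and 26.3% in genes over 1000 CPM, and the shares in the lowest bins are in part set by the filter on ActD and DRB levels.

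Direction went with the span of a gene. Gene span is the distance between the outermost ends of all transcripts RefSeq annotates for a gene, and 10674 of the genes kept (91.6%) had one. Of 1612 genes spanning 3 to 10 kb, 50.7% were higher under ActD and 23.2% lower. Of 285 genes over 300 kb, 10.5% were higher and 70.2% lower. The median log2 ratio was 1.05 at 3 to 10 kb, 0.39 at 10 to 30 kb, −0.38 at 30 to 100 kb, −1.20 at 100 to 300 kb and −2.04 over 300 kb. The trend did not run to the shortest genes: the 291 under 1 kb had a median of −1.62, with 26.5% higher and 56.7% lower. Histone and small RNA genes are among these but were not separated from the other short genes. Spearman's rho of span and ratio across genes was −0.245. For the length of the spliced transcript it was −0.0314, for the level in DMSO 0.0225, and over 7958 promoters −0.0439 for GC content and −0.0407 for the number of GpC steps, the preferred binding step of ActD. A value near 0 does not mean that the bins were alike. By number of GpC steps, the median ratio was −0.41 in 952 promoters with under 20, 0.11 at 20 to 29, −0.04 at 30 to 39, −0.37 at 40 to 49 and −0.66 in 554 promoters with 50 or more. In the last of these bins 25.3% of genes were higher under ActD and 44.4% lower, against 35.2% and 31.99% at 20 to 29. With promoter GC over 70%, 27.5% were higher and 39.8% lower. Genes are not independent replicates, so these values are descriptions.

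The span relation was not carried by low genes. Among genes of at least 300 CPM in DMSO, rho was −0.434 over 551 genes. There, 24.7% of 89 genes of 3 to 10 kb were higher under ActD and 3.37% lower, against 1.12% and 40.4% of 89 genes over 100 kb. Cytosolic ribosomal protein genes, with a median span of 5.01 kb and a median of 374 CPM in DMSO, contribute to that short bin. The part of this 1 family was not separated.

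Set beside the vehicle, the 2 inhibitors had differently shaped profiles along gene span. Over 5449 genes of at least 30 CPM in DMSO, the median log2 ratio of ActD over DMSO was 0.03 at 3 to 10 kb, −0.60 at 10 to 30 kb, −0.90 at 30 to 100 kb and −0.83 over 300 kb. The median of DRB over DMSO was −0.93 at 3 to 10 kb, −0.99 at 10 to 30 kb, −0.68 at 30 to 100 kb, 0.01 at 100 to 300 kb and 0.81 over 300 kb. These ratios share the DMSO library and are given side by side only. The genes were also chosen by their DMSO level, which can lower both ratios. Over all 5449 genes the medians were −0.69 for ActD over DMSO and −0.58 for DRB over DMSO. In the 120 genes over 300 kb, the median level was 43.3 CPM under ActD, 138 under DRB and 76.0 under DMSO. At the median, genes of 3 to 10 kb were level with the vehicle under ActD and below it under DRB, and genes over 300 kb were below it under ActD and above it under DRB.

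**Figure D3:**
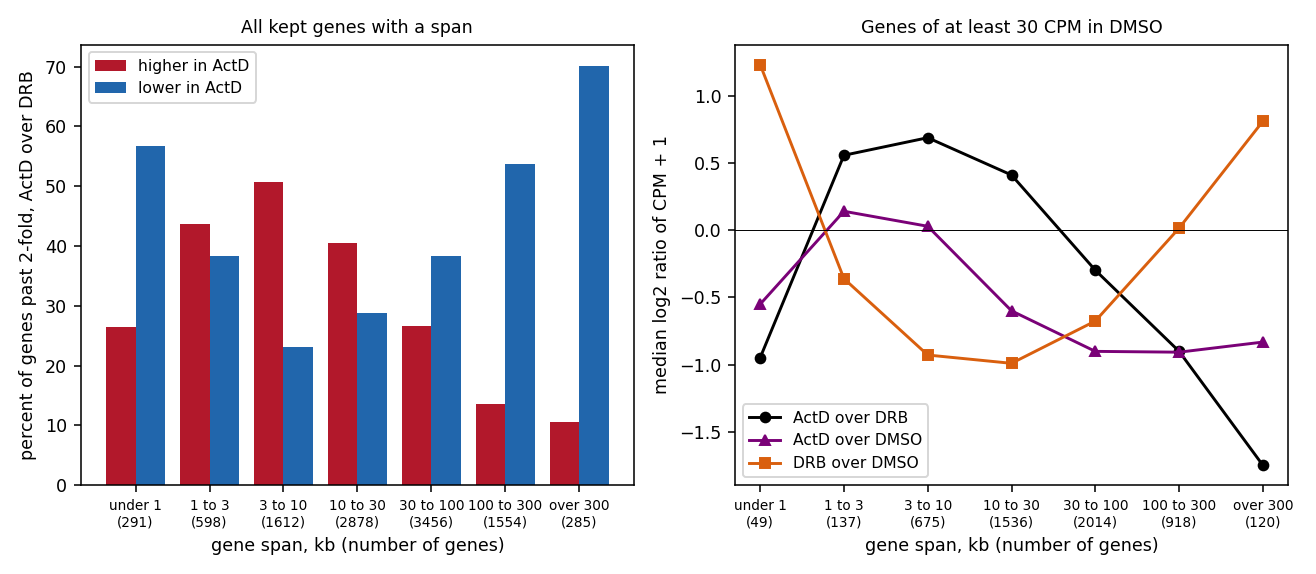
Left, percent of genes at least 2-fold higher or lower under ActD than under DRB by gene span in kb. Right, median log2 ratio (CPM + 1) by span for genes of at least 30 CPM in DMSO, as ActD over DRB (circles), ActD over DMSO (triangles) and DRB over DMSO (squares). The ActD over DRB line peaks at 0.69 for 3 to 10 kb and ends at −1.75 over 300 kb.

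Of the 10 longest genes with at least 100 CPM in DMSO, picked by span and vehicle level, 5 were lower under ActD and 0 higher. UTRN, which encodes utrophin and spans 567.7 kb, had 72.3 CPM under ActD, 390 under DRB and 234 under DMSO, a log2 ratio of −2.42 [−2.59, −2.28]. ITPR2, the type 2 inositol trisphosphate receptor, had 60.3 CPM under ActD, 370 under DRB and 191 under DMSO, and a log2 ratio of −2.60 [−2.79, −2.45]. In both, DRB stood above DMSO and ActD below it. LRBA, a protein of vesicle trafficking, had 72.8 CPM under ActD, 283 under DRB and 221 under DMSO. NBAS, a factor of Golgi-to-ER transport, had 17.3 CPM under ActD, 83.2 under DRB and 108 under DMSO. ERC1, an active zone scaffold protein also found outside neurons, had 252 CPM under ActD, 666 under DRB and 200 under DMSO, so there ActD did not lie below the vehicle. RANBP2, ZFHX3, CAST, LRRC37A2 and GSE1 lay within 2-fold, with log2 ratios of −0.70 to 0.31.

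The highest list medians on the ActD side were those of the short-lived stress and early response RNAs. Of 22 early response genes kept (AP-1, EGR, IER and related factors, which cells switch on within minutes of a signal), 16 were higher under ActD and 3 lower, with a median log2 ratio of 2.83. Of 34 labile feedback and stress genes 23 were kept, of which 19 lay higher and 3 lower, the median being 3.32. The same shares over all genes are 33.6% and 37.7%, and the median −0.15. The median labile gene had 41.4 CPM under ActD, 0.624 under DRB and 10.9 under DMSO, and 7 of the 23 were at 0 counts in 1 library. Labile genes this low under DRB were kept only by their ActD level, so their count is in part set by the filter. Summed, the early response genes held 3104 CPM under ActD, 523 under DRB and 1201 under DMSO, and the labile genes 3657 CPM under ActD, 177.03 under DRB and 1296 under DMSO. They are short, with median spans of 5.47 and 4.15 kb against 29.7 kb over all genes.

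JUN, an AP-1 subunit, had 738 CPM under ActD, 8.94 under DRB and 58.7 under DMSO, a log2 ratio of 6.21 [5.93, 6.83]. FOSB, another AP-1 subunit, had 159 CPM under ActD, 1.25 under DRB and 4.62 under DMSO, a ratio of 6.16 [5.87, 8.45]. In both, ActD lay above the vehicle and DRB below it. PPP1R15A, also known as GADD34, which directs a phosphatase to the translation factor eIF2α, had 1324 CPM under ActD, 28.9 under DRB and 110 under DMSO, a ratio of 5.47 [5.27, 5.77]. PMAIP1, the apoptosis activator NOXA, had 572 CPM under ActD, 9.78 under DRB and 41.8 under DMSO. DDIT3, the stress factor CHOP, had 157 CPM under ActD, 0.208 under DRB, which is 1 count, and 6.15 under DMSO. MAFF, a small MAF transcription factor, had 40.5 CPM under ActD, 0 under DRB and 0.256 under DMSO, so it was at least 64.9-fold higher under ActD. IER5L and SGK1 showed the same order of the 3 libraries, with log2 ratios of 6.36 and 6.09.

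The vehicle lay elsewhere for other short-lived RNAs. MYC, the growth regulator that HL-60 cells carry in amplified form, had 80.8 CPM under ActD, 3.33 under DRB and 283 under DMSO, a log2 ratio of 4.24 [3.88, 5.42]. Both inhibitor libraries were below the vehicle there. TRIB1, a pseudokinase that targets C/EBP factors for degradation, had 237 CPM under ActD, 1.87 under DRB and 147 under DMSO, so ActD lay within 2-fold of the vehicle. MCL1, a short-lived survival protein of the BCL2 family, had 938 CPM under ActD, 122 under DRB and 381 under DMSO, a ratio of 2.93 [2.82, 3.07], with ActD above the vehicle and DRB below it.

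Not all members followed. JUND, a JUN paralogue that resting cells express, had 8.28 CPM under ActD, 96.3 under DRB and 33.2 under DMSO, a log2 ratio of −3.39 [−4.02, −3.10], opposite to JUN. JUNB, with 482 CPM under ActD, 102 under DRB and 46.5 under DMSO, lay above the vehicle in both libraries. NR4A3, an orphan nuclear receptor, had 0 counts under ActD against 10.8 CPM under DRB and was at least 19.6-fold lower. TRIB3, a pseudokinase induced by ATF4, had 0 counts under ActD against 30.8 CPM under DRB and 14.6 under DMSO, and was at least 55.8-fold lower. IER2 had 51.5 CPM under ActD, 109 under DRB and 13.97 under DMSO, a ratio of −1.06 that drops below 2-fold on other scales, to −0.69 with MT- genes in the total. EGR1 had 13.98 CPM under ActD and 8.32 under DRB, within 2-fold.

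The NF-kappa-B genes split, with 7 of 14 higher (50%) and 5 lower (35.7%) under ActD and a median of 0.93. Over all genes the shares were 33.6% and 37.7%. NFKB2, which encodes p100, had 295 CPM under ActD, 3.33 under DRB and 31.9 under DMSO. NFKB1, which encodes p105, had 0.368 CPM under ActD, 107 under DRB and 50.1 under DMSO. These paralogues went opposite ways, at log2 ratios of 6.10 and −6.30, and they span 8.42 kb and 116 kb. The short inhibitor gene NFKBIA, with 0.368 CPM under ActD, 11.4 under DRB and 27.7 under DMSO, and the cytokine gene TNF, with 0.184 CPM under ActD, 13.7 under DRB and 3.33 under DMSO, were lower under ActD although they span 3.24 and 2.77 kb. NFKBIE, another inhibitor gene, was higher under ActD at 5.57.

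**Figure D4:**
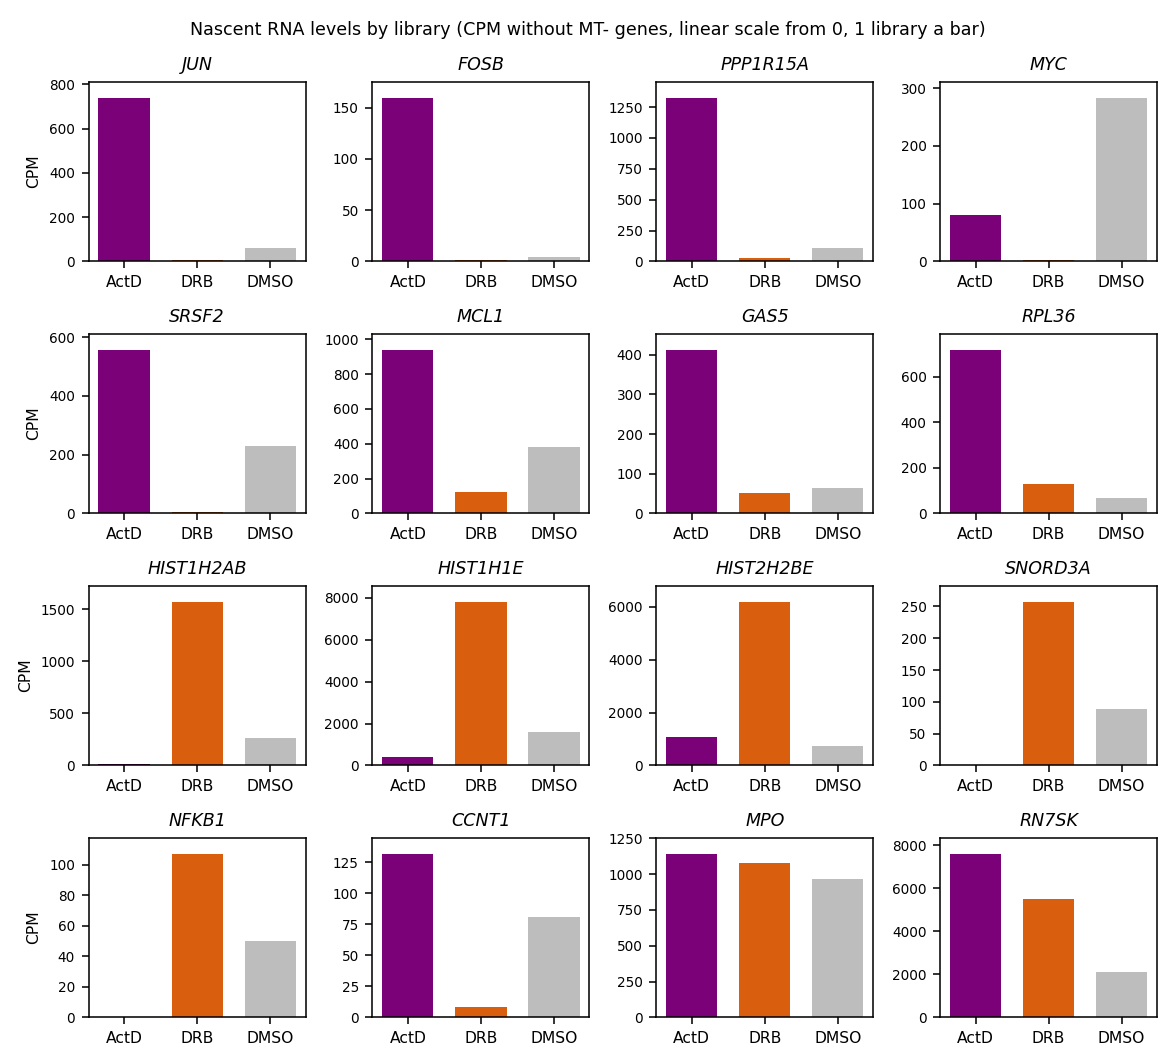
CPM of 16 genes under ActD, DRB and DMSO, 1 library a bar, each panel on its own linear axis from 0. JUN, FOSB and PPP1R15A stand above both other libraries under ActD, the histones and SNORD3A stand highest under DRB, MYC stands highest under DMSO, and MPO has similar bars.

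The largest group on the DRB side was the replication-dependent histones, the intronless genes that supply chromatin in S phase and whose RNAs end in a stem-loop in place of a poly(A) tail. Of 70 such genes, 52 were kept, of which 40 were lower under ActD, 3 higher and 9 within 2-fold, with a median log2 ratio of −3.16. That is 76.9% lower and 5.77% higher, against 37.7% and 33.6% over all genes. Together the histone genes took 8677 CPM under ActD, 65371 under DRB and 13852 under DMSO. Their share therefore lay above the vehicle under DRB and below it under ActD. Histone genes are near copies of each other, so single values depend on how reads were split between them.

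By summed level, all 5 histone classes lay in this direction. The H1 genes summed to 520 CPM under ActD, 9921 under DRB and 2284 under DMSO. The H2A genes summed to 4020 CPM under ActD, 36973 under DRB and 7398 under DMSO. The H2B genes summed to 3259 CPM under ActD, 15963 under DRB and 3548 under DMSO. The H4 genes summed to 213 CPM under ActD, 939 under DRB and 299 under DMSO. The H3 genes summed to 665 CPM under ActD, 1572 under DRB and 308 under DMSO, so for H3 both inhibitor libraries stood above the vehicle. Under ActD this rested largely on HIST2H3A and HIST2H3C, which have identical counts. Each had 287 CPM under ActD, 426 under DRB and 78.5 under DMSO. Other H3 genes went both ways, with HIST1H3B at 32.7 CPM under ActD and 65.1 under DMSO, and HIST1H3A at 20.8 and 9.36. HIST1H2AB had 16.6 CPM under ActD, 1569 under DRB and 267 under DMSO, a log2 ratio of −6.48 [−6.88, −6.27]. HIST1H1E, a linker histone, had 413 CPM under ActD, 7794 under DRB and 1616 under DMSO, a ratio of −4.23. HIST2H3D had 0.368 CPM under ActD, 208 under DRB and 11.4 under DMSO. HIST2H2BE, which can also make a polyadenylated RNA, had 1073 CPM under ActD, 6177 under DRB and 755 under DMSO, a ratio of −2.52 [−2.57, −2.48]. The near-identical pair HIST2H2AA3 and HIST2H2AA4 was −3.89 when summed.

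The 3 histone genes higher under ActD were HIST1H4K, HIST1H3D and HIST1H2BN. HIST1H4K had 5.89 CPM under ActD and 0 counts under DRB, at least 9.43-fold higher. HIST1H3D had 34.2 CPM under ActD and 10.8 under DRB, a log2 ratio of 1.58 that was 0.57 in the deposited TPM. HIST1H2BN had 342 CPM under ActD and 163 under DRB, a ratio of 1.06.

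Histone genes outside the replication-dependent set did not follow. Of 9 replication-independent histone genes, most of which make polyadenylated RNA, 5 were higher under ActD (55.6%) and 2 lower (22.2%). Over all genes the shares were 33.6% and 37.7%. The median span of these 9 genes was 3.60 kb, and genes of 3 to 10 kb had 50.7% higher and 23.2% lower. H2AFV, one of the 2 genes for H2A.Z, had 386 CPM under ActD, 60.3 under DRB and 164 under DMSO, a log2 ratio of 2.66. H2AFZ, the other, had 171 CPM under ActD, 116 under DRB and 113 under DMSO, a ratio of 0.56. H3F3B, for histone H3.3, had 515 CPM under ActD, 171 under DRB and 420 under DMSO. Of 11 factors that process histone RNA ends, 2 were higher (18.2%) and 4 lower (36.4%). SLBP, which binds the stem-loop, had 44.0 CPM under ActD, 109 under DRB and 178 under DMSO, and its ratio of −1.29 was −0.91 with MT- genes in the total.

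Of 166 non-histone genes whose span was at most 1.1 times their transcript, a proxy for few or no introns chosen after values were seen, 57.2% were higher under ActD and 30.1% lower, with a median log2 ratio of 1.81. Of the 52 histone genes kept, 24 passed the same limit, of which 4.17% were higher and 58.3% lower. The sets also differed in level, with a median in DMSO of 11.2 CPM in the non-histone genes and 80.7 CPM in the histone genes. Called shares of genes low in DMSO are in part set by the filter on ActD and DRB levels.

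Small RNAs made by polymerase II stood with the histones. All 10 spliceosomal small nuclear RNA genes kept, of 21 in the tables, were lower under ActD, with a median log2 ratio of −2.32. Over all genes 37.7% were lower. The median member had 0.405 CPM under ActD, 5.99 under DRB and 0.397 under DMSO. Most members thus passed the filter only through DRB, so their direction was in part set by it. Levels were low, and 8 of the 10 are U1 copies with identical counts, so the members are not independent. The U1 genes summed to 3.24 CPM under ActD, 47.9 under DRB and 3.18 under DMSO. RNU12, the U12 RNA of the minor spliceosome, had 0.184 CPM under ActD, 32.5 under DRB and 0.128 under DMSO. Of 9 small nucleolar and Cajal body RNAs kept, 8 were lower under ActD and 1 higher. The median member there had 0.368 CPM under ActD and 9.68 under DRB, so the filter in part set this count too. SNORD3A, the U3 RNA of ribosomal RNA processing, had 0.123 CPM under ActD, 257 under DRB and 88.6 under DMSO, the lowest ratio among genes of at least 100 counts. Over all 61 U3 genes and copies the sum was 29.98 CPM under ActD, 485 under DRB and 131 under DMSO.

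RNA polymerase III transcripts showed no common direction, with 1 of 7 higher (14.3%), 2 lower (28.6%) and a median of 0.13. Over all genes the shares were 33.6% and 37.7%. RN7SK, the scaffold that holds P-TEFb inactive, had 7584 CPM under ActD, 5481 under DRB and 2119 under DMSO, a log2 ratio of 0.47, and with its annotated copy the sum gave 0.51. RPPH1, the RNA of RNase P, had 45.1 CPM under ActD, 383 under DRB and 102 under DMSO. RMRP, the RNA of the related enzyme RNase MRP, lay the other way, with 79.1 CPM under ActD, 7.23 under DRB and 10.5 under DMSO.

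Genes of the translation machinery leaned to ActD by smaller steps. Of 79 cytosolic ribosomal protein genes 27 were higher under ActD and 1 lower, which is 34.2% and 1.27% against 33.6% and 37.7% over all genes. The higher share was thus near that over all genes and the lower share far under it. The median ribosomal protein gene had 374 CPM in DMSO, however, and called shares fall with level. Among all genes of 300 to 1000 CPM in DMSO, 11.9% were higher and 18.1% lower. Beside genes of that level, the ribosomal protein genes had a larger higher share and a smaller lower share. The median log2 ratio was 0.79, and 72 of the 79 were above 0. Summed, they took 110411 CPM under ActD, 61816 under DRB and 51927 under DMSO. RPL36 had 718 CPM under ActD, 129 under DRB and 67.6 under DMSO, a ratio of 2.47 [2.36, 2.60]. RPL10 had 271 CPM under ActD, 34.1 under DRB and 51.7 under DMSO. RPS26 had 45.3 CPM under ActD, 2.496 under DRB and 24.1 under DMSO. RPL39 was the one lower gene, with 20.2 CPM under ActD and 55.5 under DRB. Translation factors and related genes whose RNAs share the terminal oligopyrimidine start of ribosomal protein RNAs stayed closer, with 2 of 18 higher, 1 lower and a median of 0.18.

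The snoRNA host genes, whose introns carry small nucleolar RNAs and whose spliced RNAs are mostly unstable, stood clearly on the ActD side. Of 16 kept, 12 lay higher (75%) and 1 lower (6.25%), against 33.6% and 37.7% over all genes, and the median log2 ratio was 2.19, or 2.33 with the gene at 0 counts at its bound. The hosts are short, with a median span of 4.18 kb. Genes of 3 to 10 kb had 50.7% higher, 23.2% lower and a median of 1.05. GAS5 had 412 CPM under ActD, 51.8 under DRB and 64.2 under DMSO. SNHG3 had 536 CPM under ActD, 67.4 under DRB and 90.002 under DMSO, and both genes had a ratio of 2.97. SNHG10 had 119 CPM under ActD, 0.208 under DRB and 16.7 under DMSO. SNHG17 was lower, with 3.31 CPM under ActD, 11.6 under DRB and 52.7 under DMSO. The hosts thus lay opposite to the free-standing snoRNA genes such as SNORD3A.

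Splicing factors held members with very large gaps. Of 21 SR proteins and their regulators, 9 were higher under ActD (42.9%) and 1 lower (4.76%), with a median of 0.81. Over all genes the shares were 33.6% and 37.7%. SRSF2, a serine- and arginine-rich splicing factor, had 556 CPM under ActD, 4.58 under DRB and 229 under DMSO, a log2 ratio of 6.64 [6.32, 7.601]. SRSF7 had 269 CPM under ActD, 25.2 under DRB and 296 under DMSO. CLK4, a kinase of SR proteins, had 43.6 CPM under ActD, 0.832 under DRB and 84.4 under DMSO. In these, DRB was far below the vehicle, and in SRSF7 ActD was near it. SRSF8 was lower, with 1.47 CPM under ActD, 24.5 under DRB and 67.8 under DMSO. Among nuclear long non-coding RNAs, 9 of 15 were higher (60%) and 1 lower (6.67%). MALAT1, the most abundant of them, had 10503 CPM under ActD and 19805 under DRB, within 2-fold at −0.91, and NEAT1 had 1223 CPM under ActD and 1302 under DRB.

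**Figure D5:**
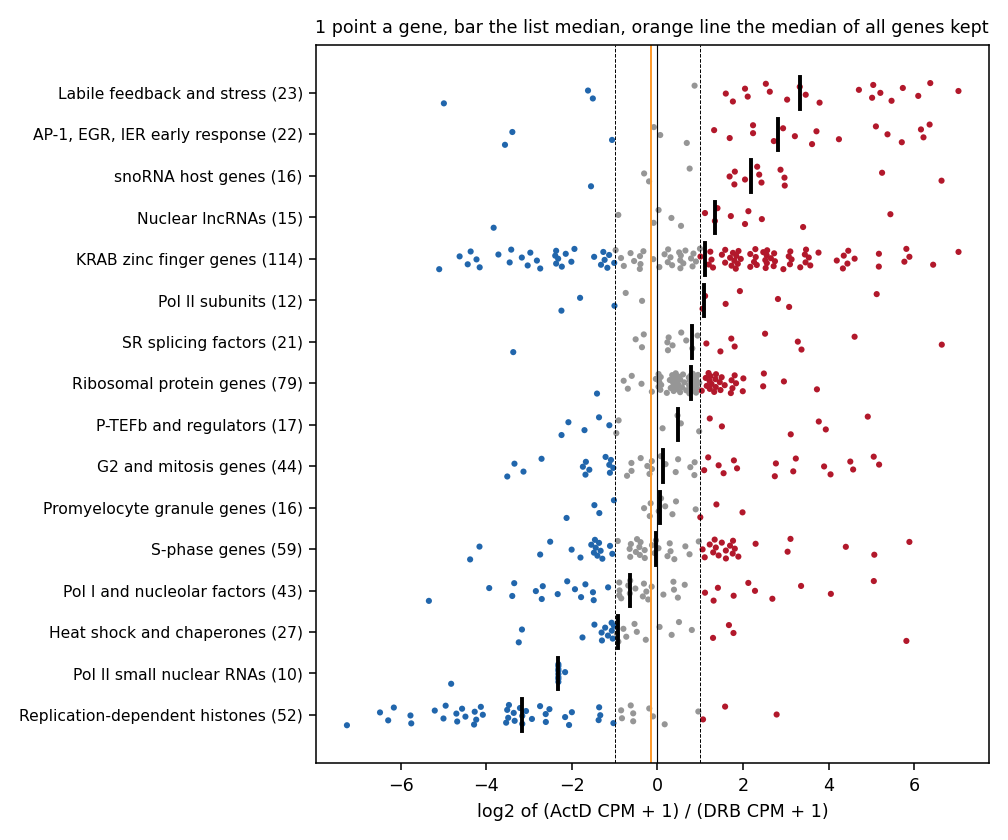
Log2 ratio of ActD over DRB (CPM + 1) for each kept gene of 16 lists, 1 point a gene, with the list median as a bar, the median of all genes (−0.15) as an orange line and 2-fold as dashed lines. Points past 2-fold are coloured, and list medians run from 3.32 for labile feedback and stress genes to −3.16 for replication-dependent histones.

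The genes of the drug target itself were called in both directions, at shares near those over all genes. CDK9, the kinase inhibited by DRB, had 15.3 CPM under ActD, 7.28 under DRB and 27.3 under DMSO, within 2-fold at 0.97 [0.48, 1.68]. Its partner cyclins were higher under ActD. CCNT1 had 132 CPM under ActD, 8.74 under DRB and 81.2 under DMSO, and CCNT2 had 259 CPM under ActD, 16.02 under DRB and 99.5 under DMSO. MEPCE, which caps 7SK RNA, was higher at 3.11, while LARP7, which binds the same RNA, was lower at −2.08. HEXIM1, the inhibitor protein of the complex, had 53.9 CPM under ActD and 36.6 under DRB, within 2-fold. MLLT3, a subunit of the super elongation complex, had 79.3 CPM under ActD, 1.66 under DRB and 2.05 under DMSO. Over all 17 genes of P-TEFb and its regulators, 6 were higher (35.3%) and 5 lower (29.4%), against 33.6% and 37.7% over all genes. Casein kinase 2, another kinase that DRB inhibits, has a catalytic gene CSNK2A1 with 119 CPM under ActD, 117 under DRB and 131 under DMSO. The other, CSNK2A2, had 35.0 CPM under ActD, 95.7 under DRB and 228 under DMSO, but its ratio of −1.43 was 0.046 in the deposited TPM. The regulatory gene CSNK2B was higher, with 92.5 CPM under ActD, 20.8 under DRB and 74.2 under DMSO.

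Pausing and elongation factors split evenly, with 5 of 26 higher and 5 lower (19.2% each). Their median level in DMSO was 133 CPM, and among all genes of 100 to 300 CPM 21.4% were higher and 27.3% lower. Among the 4 NELF genes, NELFB had 116 CPM under ActD, 5.20 under DRB and 11.2 under DMSO, and NELFA had 0.184 CPM under ActD, 14.1 under DRB and 17.4 under DMSO. NELFE and NELFCD, the other two, lay within 2-fold. Of the 12 polymerase II subunits, 7 were higher under ActD (58.3%) and 3 lower (25%), against 33.6% and 37.7% over all genes. Their median span was 7.84 kb, and of all genes of 3 to 10 kb 50.7% were higher and 23.2% lower. The subunit genes were thus near genes of that span. The largest subunit gene, POLR2A, had 1330 CPM under ActD, 1707 under DRB and 3539 under DMSO, within 2-fold at −0.36. POLR2C had 77.3 CPM under ActD, 1.25 under DRB and 35.3 under DMSO. Of the 3 lower genes POLR2K, POLR2E and POLR2B, POLR2E stood at −1.81 but at −0.49 in the deposited TPM, and POLR2B sat at the limit with −1.004 and was within 2-fold on other scales.

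Polymerase I and its nucleolar partners, the machinery most sensitive to ActD in textbook accounts, were not on 1 side at the level of their own RNAs. Of 43 genes 10 were higher (23.3%) and 15 lower (34.9%) under ActD, with a median log2 ratio of −0.64. Over all genes the shares were 33.6% and 37.7%. TAF1A, a subunit of the initiation factor SL1, had 0 counts under ActD against 39.5 CPM under DRB, at least 71.6-fold lower. POLR1A, the largest subunit, had 42.3 CPM under ActD, 217 under DRB and 272 under DMSO. POLR1B, the next largest, had 91.4 CPM under ActD, 4.58 under DRB and 87.6 under DMSO. Nucleolin (NCL) and nucleophosmin (NPM1), abundant nucleolar proteins, lay within 2-fold at −0.65 and −0.60. Topoisomerase and DNA damage response genes held 6 higher and 6 lower of 28 (21.4% each). TOP1 had 241 CPM under ActD and 352 under DRB, and TOP2A had 361 CPM under ActD and 425 under DRB, both within 2-fold.

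Of 27 heat shock and chaperone genes, 4 were higher under ActD (14.8%) and 12 lower (44.4%), with a median log2 ratio of −0.91. The lower share is somewhat above the 37.7% over all genes, and the higher share is under the 33.6% over all genes. The median heat shock and chaperone gene had 261 CPM in DMSO. Among all genes of 100 to 300 CPM in DMSO, 21.4% were higher and 27.3% lower. HSPA1B, an inducible HSP70 gene, had 425 CPM under ActD, 1435 under DRB and 166 under DMSO, so both inhibitor libraries were above the vehicle. It shares most of its sequence with HSPA1A, which had 999 CPM under ActD, 2063 under DRB and 498 under DMSO. DNAJB1, a co-chaperone of HSP70, lay the other way, with 489 CPM under ActD, 7.70 under DRB and 142 under DMSO, a ratio of 5.82. DNAJB6 was higher at 1.78 in CPM but lower at −1.10 in the deposited TPM.

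Zinc finger genes of the KRAB type, mostly transcriptional repressors with short-lived RNAs, had 58 of 114 higher (50.9%) and 29 lower (25.4%), against 33.6% and 37.7% over all genes. The median log2 ratio of 1.102 was under 2-fold in 3 other settings, at 0.83 in the deposited TPM, 0.67 with 5 CPM added and 0.51 with no filter beyond 1 count. ZNF669 was the highest, with 185 CPM under ActD, 0.416 under DRB and 12.3 under DMSO. Of 11 BCL2 family genes 7 were higher (63.6%) and 2 lower (18.2%). BCL2L1, which encodes BCL-XL, had 37.3 CPM under ActD, 0.416 under DRB and 4.62 under DMSO, and BCL2 itself lay within 2-fold at 0.41. Of 14 p53 target genes, measured here in a line that lacks p53, 6 were higher (42.9%) and 1 lower (7.14%), and the sign of the median of 0.64 changed in another setting.

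Cell cycle genes showed wide gaps in both directions. Of 44 genes of G2 and mitosis 16 were higher (36.4%) and 13 lower (29.5%). Of 59 S-phase genes 21 were higher (35.6%) and 16 lower (27.1%), against 33.6% and 37.7% over all genes. CKS2, a small CDK-binding protein, had 186 CPM under ActD, 4.16 under DRB and 220 under DMSO. CDT1, which loads the replicative helicase, had 144 CPM under ActD, 1.46 under DRB and 29.7 under DMSO. BUB1, a checkpoint kinase, had 4.60 CPM under ActD, 55.7 under DRB and 134 under DMSO.

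Granule genes, which define the promyelocyte, lay mostly within 2-fold. Of 16 kept, 3 were higher (18.8%) and 4 lower (25%), against 33.6% and 37.7% over all genes. Their median level in DMSO was 162 CPM. Among all genes of 100 to 300 CPM in DMSO, 21.4% were higher and 27.3% lower, so the granule genes were near genes of their level. MPO, the myeloperoxidase, had 1140 CPM under ActD, 1076 under DRB and 964 under DMSO, a log2 ratio of 0.08 [0.03, 0.14]. Of 12 myeloid transcription factors and receptors 5 were higher (41.7%) and 4 lower (33.3%). SPI1, which encodes PU.1, had 229 CPM under ActD, 73.4 under DRB and 155 under DMSO. CEBPA had 1.84 CPM under ActD, 7.90 under DRB and 88.8 under DMSO. Nuclear-encoded respiratory chain genes (18 higher and 20 lower of 68), proteasome subunits (9 and 11 of 34), cholesterol synthesis genes (9 and 7 of 24), and tRNA synthetases with ATF4 targets (12 and 6 of 33) had medians between 0.02 and 0.28. The signs of those 4 medians changed in at least 1 other setting. ATF4, the stress factor itself, had 2041 CPM under ActD, 433 under DRB and 712 under DMSO. Of 15 housekeeping genes 3 were higher and 2 lower, with ACTB at 0.37 and GAPDH at 0.85.

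The single genes with the widest gaps were chosen by their ratio, so their gaps are a description. Of the 15 highest genes with at least 100 counts, 10 had under 10 CPM in DMSO, and of the 15 lowest 6 did, with medians of 7.95 and 16.4 CPM. The median span was 6.80 kb in the highest and 27.9 kb in the lowest, over 12 genes with a span each. POP5, a protein of RNase P and RNase MRP, had 242 CPM under ActD, 0.208 under DRB and 7.95 under DMSO. On the other side, GHSR, the ghrelin receptor gene, had 1.104 CPM under ActD, 291 under DRB and 0.897 under DMSO. RUSC1 had 1.66 CPM under ActD, 363 under DRB and 8.46 under DMSO. NEB, the nebulin gene of 249 kb, had 0 counts under ActD against 99.9 CPM under DRB and 6.03 under DMSO, at least 181-fold lower. In each of these 4 genes the vehicle was under 10 CPM, and 1 inhibitor library stood far above both others. Counting is not stated to use strand, so reads of an overlapping or antisense neighbour cannot be told apart. The highest gene by ratio was the read-through RPL17-C18orf32, which shares exons with RPL17. It had 365 CPM under ActD against 0 counts under DRB and DMSO, and the pair summed gave only 0.60.

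The vehicle library places each gap. Of the 3922 genes higher under ActD, 1225 (31.2%) were within 2-fold of DMSO under ActD and lower under DRB. In 1143 (29.1%) ActD was higher than DMSO and DRB within 2-fold, and in 839 (21.4%) both applied. Of the 4391 genes lower under ActD, 1773 (40.4%) were lower than DMSO under ActD with DRB within 2-fold, in 1016 (23.1%) DRB was higher than DMSO with ActD within, and in 692 (15.8%) both applied. Over all 11657 genes, ActD was higher than DMSO in 21.8% and lower in 38.7%, and DRB was higher in 19.0% and lower in 34.9%. These comparisons share libraries, so the counts are linked by construction.

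Acetylated H2A.Z, a histone variant mark of active starts, was called by ChIP in the same treatments. Among protein-coding genes with a RefSeq promoter, a peak lay within 1000 bases of the start in 78.9% of 2522 genes higher under ActD, 75.3% of 2869 lower genes and 86.9% of 2567 genes within 2-fold, in the ActD peak list. The DRB list gave 88.9%, 85.3% and 93.5% for the same sets, and the DMSO list 85.0%, 77.8% and 91.3%. In each list, higher genes had a peak somewhat more often than lower genes, and genes within 2-fold most often. With peaks of at least 8-fold over control, the shares of higher and lower genes were 66.8% and 65.0% in the ActD list and 79.8% and 78.4% in the DRB list. The DMSO list then gave 83.5% and 75.9%. Genes are not independent replicates, so these shares are descriptions. The genes within 2-fold are also the more abundant ones, and the part of that in the difference was not tested. The lists hold 31240 peaks under ActD, 29432 under DRB and 17007 under DMSO, 1 library each, so their shares are not compared between treatments.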

How the data were processed

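Nascent RNA of HL-60 cells was analysed under ActD, DRB and DMSO, 1 library each, grouped by title. The submitters' processing notes name the build GRCh38 and, without roles, STAR 2.5.2b, HOMER, cutadapt, Trim Galore and FastQC. Quantifier and annotation are not given in the sources used here. The authors deposited, per the file headers, estimated (expected) counts per gene, TPM and transcript length, in the nascent tables packed into 1 field that was split here. The deposited expected counts of input DNA were used in the same way. Per the file headers, the deposited acetylated H2A.Z peaks come from HOMER, with a tag count (a normalized signal whose scale is not given) and a fold over control. The authors called peaks per library, and the lowest deposited fold was 4.

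Expected counts were scaled to CPM without MT- genes. Genes with a mean of at least 1 CPM over ActD and DRB were kept, 1 CPM was added, and 2-fold was the limit of a call. Counts were rounded for intervals. No test across genes was possible with 1 library a side. Reads carry no molecular identifiers, so intervals cover counting error only. Gene spans, biotypes and promoters came from RefSeq (GRCh38.p14) by symbol. Exon numbers were not computed.

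The members and the 36 gene lists were chosen with earlier results of these data known. Genes were named by a rule: the 15 highest and 15 lowest with at least 100 counts summed, 3 members at either end of each list, and 27 genes set by hand. Other list members named in the text, and the 10 longest genes, were chosen after their values were seen. The alternatives were scales (MT- genes included, median centring, small RNAs left out, edgeR 4.0.16 TMM factors, DESeq2 1.42.0 size factors, TPM), pseudocounts of 0.1 and 5 CPM, and filters. edgeR and DESeq2 gave scaling factors only. Python 3.11.15, numpy 2.4.6, pandas 2.3.3, scipy 1.17.1, matplotlib 3.10.9 and R 4.3.3 were used, and the scripts were checked on simulated data.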

Additional observations from a re-analysis of the deposited data

How the results depend on the processing

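No paired analysis was possible because each group held 1 library, and with 1 library a side none could be left out. The median log2 ratio over all genes, −0.15, was 0.29 with MT- genes in the total, 0.00 when centred on the median gene, −0.049 with DESeq2 size factors and −0.26 in the deposited TPM, so it is a matter of scale. Counts of higher genes ran from 3151 (a mean of at least 5 CPM) to 4138 (centred), and of lower genes from 3175 (MT- genes included) to 4652 (no filter), all within 1.5 times the 3922 and 4391 reported. Genes with DRB higher than DMSO and ActD within, 1016, numbered 660 with MT- genes included, 669 with a pseudocount of 0.1 CPM and 636 at a minimum mean of 5 CPM, and the cause was not tested. Spearman's rho of span and ratio ran from −0.283 to −0.226. The median of early response genes ran from 2.08 to 3.07, of labile genes from 1.85 to 5.09, of histones from −3.32 to −2.64, of ribosomal protein genes from 0.68 to 1.14 and of snoRNA hosts from 1.90 to 2.64. Of 12 list medians past 2-fold, 0 changed sign and 3 fell under 2-fold in some setting. Of 203 named genes past 2-fold, 23 fell under it somewhere and 3 changed sign, all in the deposited TPM, which depends on transcript lengths: DNAJB6 at −1.10 against 1.78, TFRC at 0.15 against −1.73 and CSNK2A2 at 0.046 against −1.43. The cause was not tested.

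With peaks of at least 8-fold over control, genes higher under ActD, lower and within 2-fold had an acetylated H2A.Z peak in 66.8%, 65.0% and 76.0% in the ActD list, 79.8%, 78.4% and 83.6% in the DRB list, and 83.5%, 75.9% and 89.99% in the DMSO list. Within 5000 bases the shares were 82.8%, 79.6% and 89.9% in the ActD list, 91.7%, 87.8% and 95.2% in the DRB list, and 88.0%, 80.0% and 93.3% in the DMSO list. Depth limits genes near 1 CPM, which is about 5 counts in either library.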
